A study of Mus musculus with 5 samples.

Results

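The S100 genes encode small calcium-binding proteins with EF-hand domains that act as dimers, inside the cell by binding targets such as the annexins and, for some members, outside it as signals for receptors of innate immunity. S100a8 and S100a9 form the heterodimer calprotectin, which granulocytes store in quantity and which serves in the clinic as a marker of gut inflammation. S100a10 binds Anxa2 at the membrane, S100a4 is known from migrating mesenchymal and myeloid cells, and S100a14 is known mainly from epithelia.

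Expression was followed for 9 S100 genes (S100a4, S100a6, S100a8, S100a9, S100a10, S100a11, S100a13, S100a14 and S100a16) of 23173 genes in the series, chosen by name and read as raw unique molecular identifier (UMI) counts in all 5 single-cell libraries. Colon tumors were induced in wildtype mice of C57BL/6J or mixed C57BL/6J;129 background with the mutagen azoxymethane and the irritant dextran sodium sulfate (AOM/DSS), and the animals then received the cytotoxic drugs 5-FU and Irinotecan in cycles. The 4 tumor libraries were 2 from day 1 (early), 1 from day 3 and 1 from day 6 (together late). The paper's methods place the harvests after the last drug cycle and call these days post-treatment. Its results describe them as days of treatment. The fifth library held cells of untreated wildtype colon enriched for stroma. Every tumor library came from animals given both drugs, so no comparison here is with untreated tumors. The study treats the day 1 pair, and day 3 with day 6, as biological replicates. The number of animals behind each library was not given in the sources used here, so p-values measure only the spread between these libraries, which may be technical.

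Cells with at least 500 genes and at most 15% mitochondrial counts were kept, which left 748 cells for day 1 replicate 1, 2403 for day 1 replicate 2, 1419 for day 3, 2826 for day 6 and 1095 for the normal stroma. Median depth was 2903 to 3601 UMIs per cell, and 4 to 41 cell barcodes were shared by any 2 libraries. Day 1 replicate 1 and day 3 had the single-index library structure and were read on one sequencer, whereas day 1 replicate 2, day 6 and the stroma had the dual-index structure and were read on another, so structure was balanced over early and late. Clusters were named from marker lists that held no S100 gene, and "-like" marks such a name. Columnar epithelial-like cells are called columnar, and tumor cells are the columnar, goblet-like and Paneth-like cells together. The S100 genes were left out of the clustering, but levels in different cell types are still given as descriptions without a test, since the clusters were made from the same cells. A cluster of 569 cells led by Cadps, Mdga2 and Spock2 stayed unnamed, and the T cell-like cluster was led by the mast cell protease genes Mcpt2 and Mcpt1 beside the T cell receptor gene Trac.

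Levels are in CPM, the UMIs of a gene per 1000000 UMIs summed over all cells of a type in a library, with at least 10 cells per sum. Where 4 values follow each other, they are those of the first and the second day 1 library, of day 3 and of day 6. They were compared between cell types and libraries, and not between members.

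The members lie on mouse chromosome 3 in 2 blocks (GENCODE annotation, GRCm38), and all are annotated as protein coding. The first block spans 181287 bp and holds S100a13 (chr3:90514435-90524581), S100a14 (chr3:90526856-90528837), S100a16 (chr3:90537254-90543151), S100a4 (chr3:90603771-90606045), S100a6 (chr3:90612882-90624181) and S100a8 (chr3:90668978-90670035) on the plus strand, and S100a9 (chr3:90692632-90695721) on the minus strand. The second block spans 44156 bp and holds S100a11 (chr3:93520488-93526287) and S100a10 (chr3:93555080-93564643), both on the plus strand. S100a8 and S100a9, 22596 bases apart, followed each other across cell types, with a Pearson r of 0.95 over 44 sums of library by type. S100a4 and S100a6, only 6836 bases apart, did so less, with r = 0.27. Both values are descriptions over sums that share 4 libraries.

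RefSeq windows of 250 bases before the annotated start (GRCm38.p6) were found for 7 of the 9 members. They were searched on both strands for TATAA (the TATA box, in 22.8% of 32851 windows of this length), TGACTCA (the AP-1 site, in 4.46%) and TTGCNNAA (a C/EBP-type site, in 9.56%). The 4 windows that held a match are shown with the match in capitals, at chr3:90668821-90669070 (plus strand) for S100a8, chr3:90695722-90695971 (minus strand) for S100a9, chr3:90603520-90603769 (plus strand) for S100a4 and chr3:93520246-93520495 (plus strand) for S100a11.
S100a8: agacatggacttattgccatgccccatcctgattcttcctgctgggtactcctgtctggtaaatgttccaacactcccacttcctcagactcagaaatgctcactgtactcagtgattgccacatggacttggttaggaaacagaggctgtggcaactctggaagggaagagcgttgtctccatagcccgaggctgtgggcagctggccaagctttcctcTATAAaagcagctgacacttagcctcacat
S100a9: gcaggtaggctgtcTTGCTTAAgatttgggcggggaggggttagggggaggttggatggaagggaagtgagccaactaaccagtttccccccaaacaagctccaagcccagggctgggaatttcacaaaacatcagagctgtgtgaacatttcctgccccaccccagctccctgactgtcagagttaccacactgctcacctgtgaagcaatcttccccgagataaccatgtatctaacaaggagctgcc
S100a4: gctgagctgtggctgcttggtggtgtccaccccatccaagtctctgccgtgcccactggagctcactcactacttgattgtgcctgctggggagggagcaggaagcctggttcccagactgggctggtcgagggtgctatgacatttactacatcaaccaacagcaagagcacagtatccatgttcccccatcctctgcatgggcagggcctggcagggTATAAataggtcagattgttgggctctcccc
S100a11: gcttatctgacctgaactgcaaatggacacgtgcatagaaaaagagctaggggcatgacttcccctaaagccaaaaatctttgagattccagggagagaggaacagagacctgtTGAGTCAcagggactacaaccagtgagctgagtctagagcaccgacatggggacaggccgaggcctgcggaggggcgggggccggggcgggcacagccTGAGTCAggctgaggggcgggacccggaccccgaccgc
TATAA began 30 bases before the start in S100a8 and 31 bases before it in S100a4. S100a9 carried its match 236 bases before the start, with the letters TTGCTTAA. A TATAA of S100a9 lay outside its window, directly after the last base shown. S100a11 carried TGACTCA at 136 and 38 bases before the start, both on the reverse strand and therefore read as TGAGTCA. These letters were not in the windows of S100a6, S100a13 and S100a16, and a match describes the sequence without showing that a factor binds.

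S100a8 and S100a9, the calprotectin pair, were highest in neutrophil-like cells in 4 of 4 tumor libraries. S100a8 stood at 4503 CPM in the neutrophil-like cells of day 1 replicate 1, 3532 in day 1 replicate 2, 685 in day 3 and 5156 in day 6. S100a9 stood at 8587, 5492, 3441 and 8998 CPM in the same order. Day 3 was the lowest library for both genes. The gap to the next type exceeded the spread between libraries, with a mean of 3469 ± 1972 CPM (SD, n = 4) for S100a8 against 68.4 ± 55.9 (SD, n = 3) in enteroendocrine-like cells. For S100a9 the means were 6629 ± 2639.6 CPM (SD, n = 4) in neutrophil-like and 120.4 ± 118 (SD, n = 4) in CAF-like cells, the cancer-associated fibroblasts. After each cell was thinned to 1000 UMIs, S100a9 was seen in 84.6% to 91.7% of neutrophil-like cells and S100a8 in 50.0% to 88.4%.

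**Figure D1:**
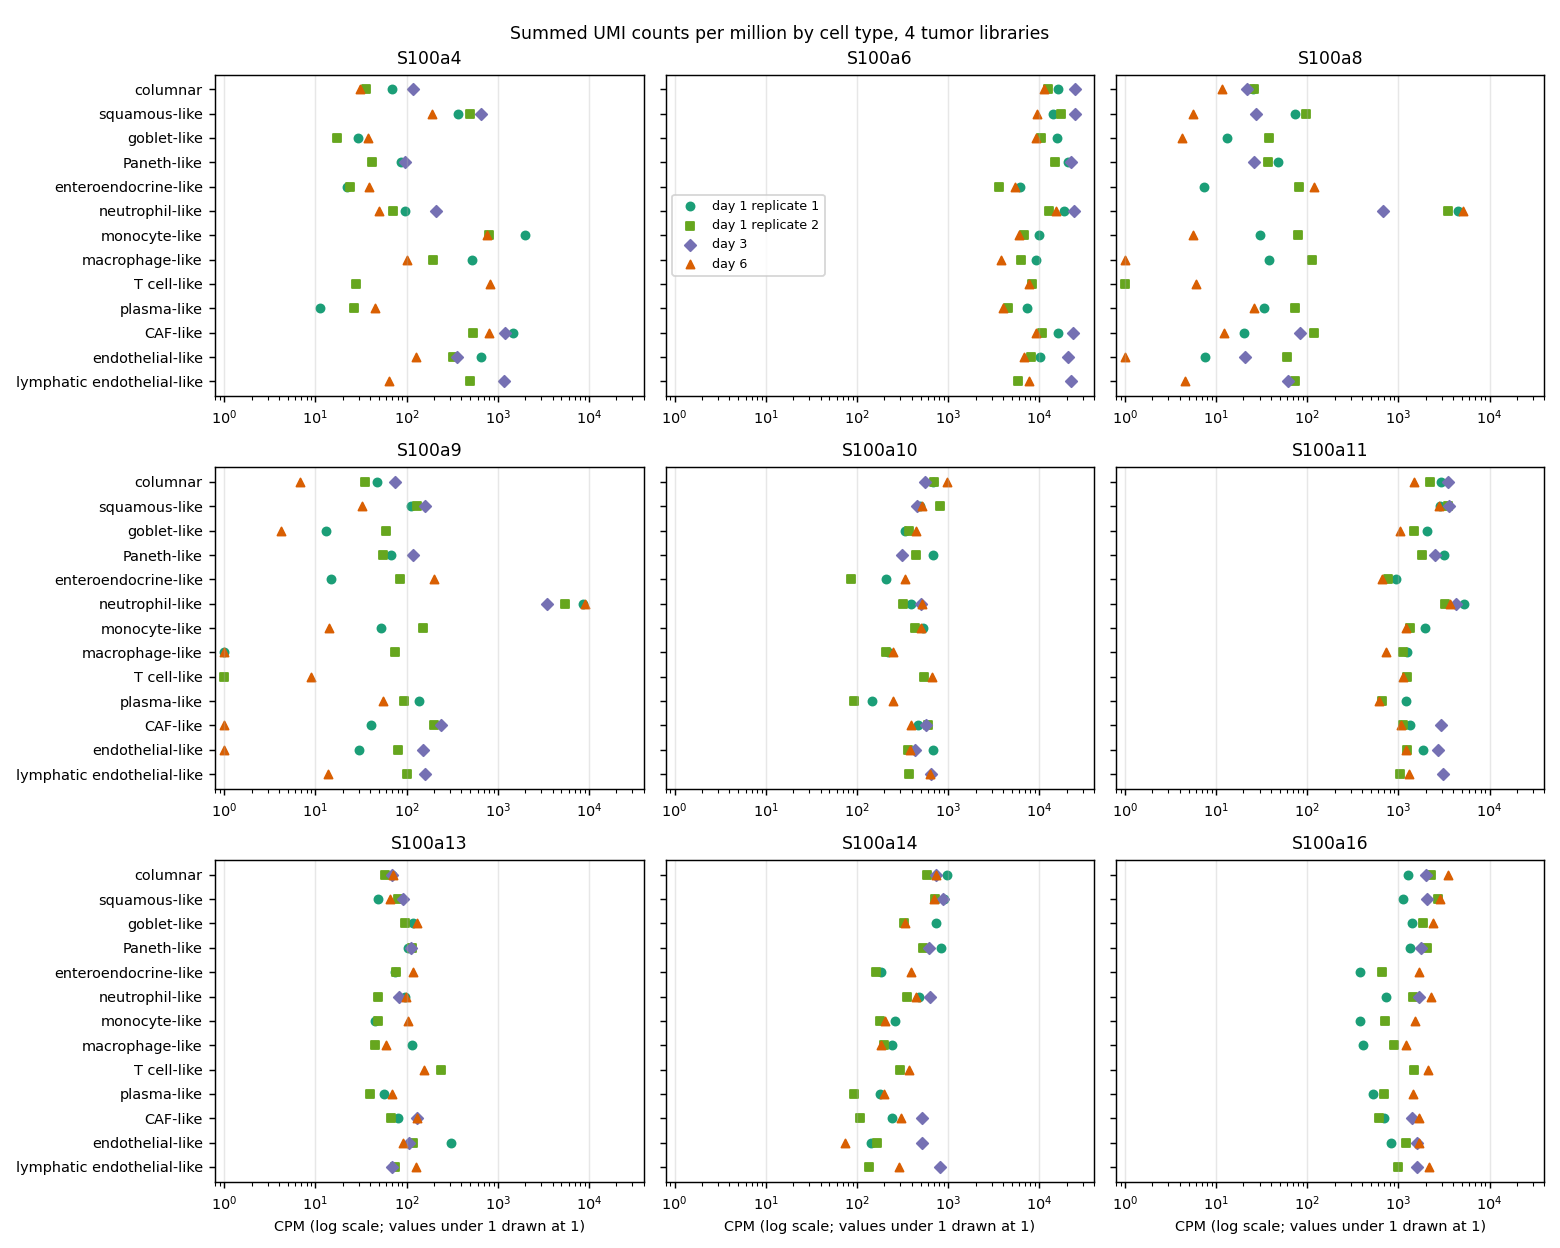
Level of each of the 9 S100 members in 13 cell types, 1 panel per member, with CPM on a log axis and 1 point per tumor library (sums of at least 10 cells; values under 1 are drawn at 1). S100a8 and S100a9 form a lone high row in neutrophil-like cells, S100a4 is high in the monocyte-like and CAF-like rows, and S100a6 lies above 3000 CPM in every row.

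Neutrophil-like cells of day 3 stood apart in the balance of the pair. The ratio of S100a8 to S100a9 counts was 0.20 there, against 0.52 in day 1 replicate 1, 0.64 in day 1 replicate 2 and 0.57 in day 6. The day 3 ratio rests on 26 cells with 42 S100a8 and 211 S100a9 counts. In the same cells 8 columnar markers stood at a median of 75.2% of their columnar level, against 44.4% to 56.1% in the neutrophil-like cells of the other 3 libraries. Csf3r, the granulocyte growth factor receptor, was at 962 CPM against 1264 to 3285. The part of transcripts from other cells in these values was not tested.

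The pair was also measured in every other cell type, as the percent of the neutrophil-like level of the same library and beside the summed counts of 10 other neutrophil markers such as Csf3r, Cxcr2 and Retnlg. In columnar cells S100a9 stood at 0.547% of the neutrophil-like level in day 1 replicate 1, 0.639% in day 1 replicate 2, 2.18% in day 3 and 0.0751% in day 6. The summed markers stood at 0.669%, 0.724%, 2.05% and 0.0953%. S100a9 and the markers thus were both highest in day 3 and lowest in day 6. S100a8 stood at 0.561%, 0.740%, 3.18% and 0.225% of its own neutrophil-like level in columnar cells. It lay above the summed markers in day 3 (95% exact Poisson interval 2.57% to 3.90%, against 1.86% to 2.25% for the markers). It also did in day 6 (0.183% to 0.275% against 0.0804% to 0.112%), and the intervals overlapped in both day 1 libraries. The highest single marker stood above S100a8 in both late libraries, at 5.81% in day 3 and 0.453% in day 6. S100a9 was seen in 3.4%, 4.1%, 7.8% and 1.5% of thinned columnar cells, and the part of free RNA in these shares was not tested. T cell-like cells of day 1 replicate 2 held 0 counts of either gene in 26 cells, which allows up to 42.1 CPM (3 counts). Intervals and limits of this kind cover counting error only.

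In squamous-like cells the value of S100a9 lay above the summed neutrophil markers in every tumor library, and that of S100a8 in 3 of them. S100a9 stood at 1.29% of the neutrophil-like level in day 1 replicate 1 (95% exact Poisson interval 0.924% to 1.75%), 2.37% in day 1 replicate 2 (1.99% to 2.81%), 4.64% in day 3 (3.99% to 5.36%) and 0.361% in day 6 (0.305% to 0.423%). The markers stood at 0.777% (0.560% to 1.05%), 1.05% (0.890% to 1.23%), 3.35% (2.90% to 3.84%) and 0.116% (0.0938% to 0.141%). The value of S100a9 was higher than the summed markers in 4 of 4 libraries, and the counting intervals were separate in 3 of them. Single markers varied widely, and the highest stood at 3.46%, 1.69%, 6.35% and 1.29% in the tumor libraries. S100a9 lay above the highest single marker only in day 1 replicate 2. S100a8 was above the summed markers in the first 3 libraries, at 1.62%, 2.76% and 4.03%, but not in day 6, at 0.110%. In the squamous-like cells of day 6 the marker gene Il1r2 alone held 56 of the 96 marker counts. The median marker stood at 0.0430% of its neutrophil-like level there, below S100a8 (95% exact Poisson interval 0.0717% to 0.161%). The place of S100a8 in day 6 thus depends on how the markers are combined. Squamous-like cells thus carried more S100a9 per neutrophil marker count than neutrophil-like cells did, without a test over libraries.

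**Figure D2:**
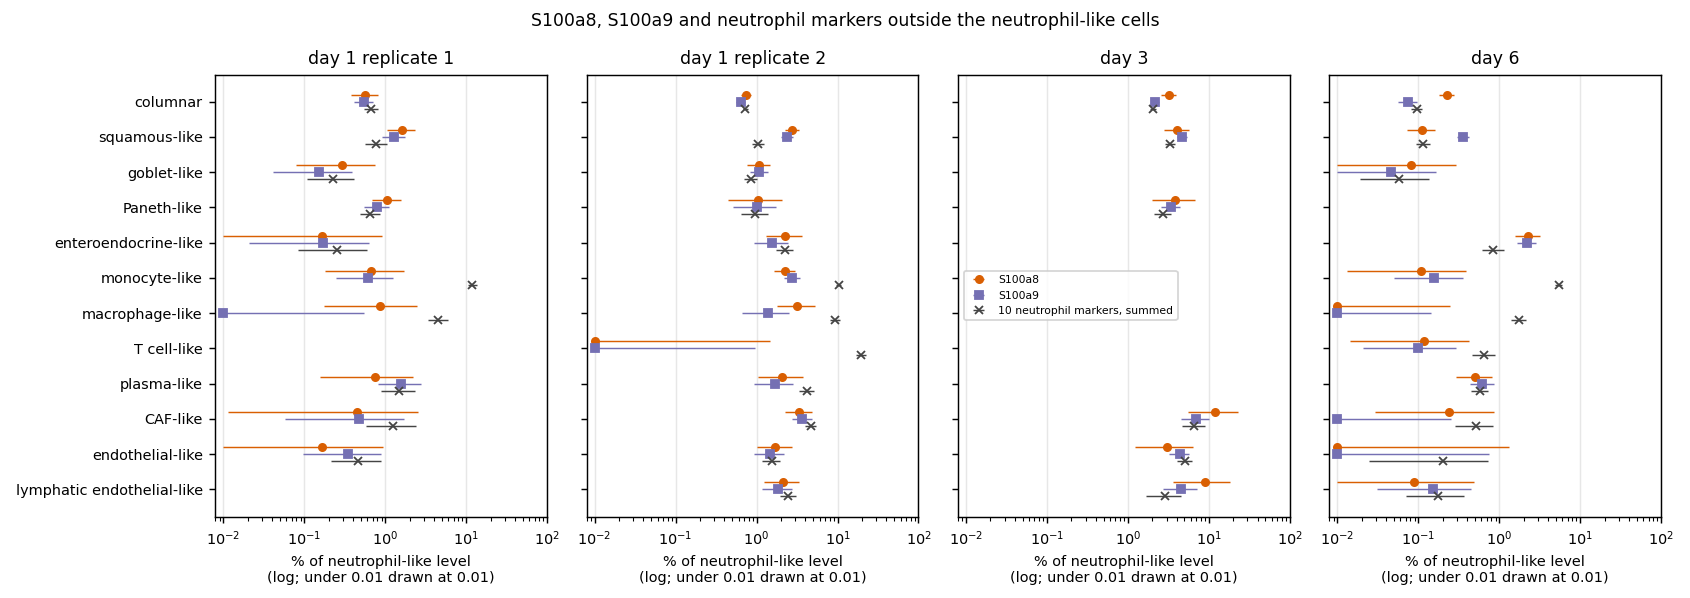
S100a8, S100a9 and the sum of 10 neutrophil markers in each other cell type, as percent of the neutrophil-like level of the same library (log axis, 1 panel per tumor library; bars are 95% exact Poisson intervals and values under 0.01 are drawn at 0.01). In columnar cells S100a9 and the markers lie close together while S100a8 lies to their right in day 3 and day 6, S100a9 lies to the right of the markers in squamous-like cells, and the markers lie far to the right in monocyte-like cells.

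In day 6 the excess was held by few cells. Of 149 S100a9 counts in 725 squamous-like cells, 95 lay in 7 cells with at least 3 such UMIs, and these 7 cells held 0 counts of the 10 neutrophil markers and 9 counts of S100a8. Their median depth was 16677 UMIs against 5685 in all squamous-like cells of that library, and none was among the 6% of cells with the highest doublet scores. By cluster, 120 of the 149 counts lay in the 238 cells led by Ltf, Psca and Ppbp, a cluster high in the suprabasal keratin Krt13, at 2.73 S100a9 counts per marker count. The 344 cells of the basal cluster led by Trp63, Col17a1 and Krt17 held 14 S100a9 counts beside 51 marker counts, a ratio of 0.27. In the other tumor libraries the squamous-like cells with at least 3 S100a9 UMIs together held marker counts as well, although some of these cells held none. In day 1 replicate 1, 5 such cells held 23 of 41 S100a9 and 19 of 42 marker counts, and 2 of the 5 had no marker count. In day 1 replicate 2, 6 held 82 of 135 and 57 of 150, and 2 of the 6 had none. In day 3, 16 held 119 of 185 and 100 of 202, and 4 of the 16 had none. The part of neutrophil RNA in these cells was not tested.

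Day 6 columnar cells showed the opposite member. Of 98 S100a8 counts in 1369 cells, 34 lay in 6 cells with at least 3 S100a8 UMIs, which held 0 counts of S100a9 and 0 counts of the 10 markers. The columnar cluster led by Clca4b, Ifit1bl1 and Atp12a (243 cells) carried 70 of the 98 S100a8 counts and 8 S100a9 counts. In the earlier libraries the high columnar cells looked different. The 7 columnar cells of day 1 replicate 2 with at least 3 S100a8 UMIs held 51 S100a8, 64 S100a9 and 117 marker counts, and 5 of them were among the 6% highest doublet scores. All 33 S100a8 counts of the 41 day 6 enteroendocrine-like cells, and 55 of their 56 S100a9 counts, lay in 1 cell.

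Monocyte-like and macrophage-like cells carried little of the pair compared with neutrophil-like cells. S100a8 was at 30.0, 79.0 and 5.59 CPM in the monocyte-like cells of both day 1 libraries and of day 6, which is 0.667%, 2.24% and 0.108% of the neutrophil-like level. The summed neutrophil markers were at 11.96%, 10.4% and 5.42% there, where the highest single marker reached 78.6%, 45.2% and 47.3% of its neutrophil-like level. In macrophage-like cells of the same libraries S100a8 was at 0.856%, 3.20% and 0% of the neutrophil-like level, on 3, 15 and 0 counts. Columnar cells of these libraries stood at 0.561%, 0.740% and 0.225%.

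S100a4, known from fibroblasts and myeloid cells, was highest in monocyte-like cells in both day 1 libraries, in CAF-like cells in day 3 and in T cell-like cells in day 6. It stood at 1983 CPM in the monocyte-like cells of day 1 replicate 1, 807 in day 1 replicate 2 and 768 in day 6. In CAF-like cells it stood at 1465, 539, 1213 and 797 CPM in the tumor libraries. Columnar cells were far lower in every library, at 68.8, 35.7, 119 and 30.6 CPM. The mean order was monocyte-like (1186 ± 690.3, n = 3), CAF-like (1003 ± 415, n = 4), lymphatic endothelial-like (576 ± 558, n = 3), squamous-like (427 ± 196, n = 4) and endothelial-like (367 ± 221, n = 4), given with SD, and no neighbours in that order differed beyond their spread.

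Squamous-like cells held more S100a4 than columnar cells in 4 of 4 libraries, at 364, 502, 651 and 192 CPM, and a UMI was seen in 29.6%, 21.7%, 36.7% and 11.8% of thinned squamous-like cells against 7.6%, 4.3%, 12.3% and 5.4% of columnar cells. Within the squamous-like cells of day 1 replicate 2, S100a4 was highest in the Trp63 basal cluster (655 CPM) and lower in the Ltf cluster (407) and in the cluster led by Krt16 (328). In day 6 the order was the same, at 227 CPM in the Trp63 cluster, 161 in the Ltf cluster and 154 in the cluster led by Calm4 and Krt10. T cell-like cells had unequal levels, at 28.1 CPM in the 26 cells of day 1 replicate 2 and 829 in the 153 cells of day 6, the highest of that library.

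S100a6, also called calcyclin and widely expressed, was detected in nearly every cell. It stood at 16256, 12388, 24647 and 11377 CPM in the columnar cells of the tumor libraries, and at 14330.4, 17398, 24745 and 9419 CPM in squamous-like cells. Paneth-like (19280.0 ± 3780.4, n = 3), neutrophil-like (17702 ± 4957, n = 4), squamous-like and columnar cells led its order without gaps beyond the SD. Enteroendocrine-like cells were lowest, at 5055 ± 1320.0 CPM (SD, n = 3). A UMI was seen in 88.2% to 100% of thinned cells of every type.

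S100a11, which binds annexins and takes part in membrane repair and in keratinocyte differentiation, was highest in neutrophil-like cells in 3 of 4 libraries, at 5205, 3285, 4321 and 3718 CPM in the tumor libraries. The mean of 4132 ± 832 (SD, n = 4) exceeded that of squamous-like cells, 3180 ± 408 (SD, n = 4), by more than the spread between libraries, although in day 1 replicate 2 squamous-like cells were higher, at 3501 CPM. Columnar cells stood at 2969, 2204, 3526 and 1482 CPM. Neutrophil-like cells held 123% to 251% of the columnar level of the same library, whereas the median of all non-epithelial types was 53.5% to 85.3%.

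S100a10, the light chain of the Anxa2 complex, was spread over epithelium and stroma. Columnar cells stood at 676, 694, 555 and 963 CPM and squamous-like cells at 494, 814, 460.5 and 518. Lymphatic endothelial-like cells (553 ± 158, n = 3) and CAF-like cells (509 ± 99.2, n = 4) followed within the SD, and plasma-like cells were lowest, at 164 ± 80.0 (n = 3). Its partner Anxa2 followed it most closely of 4238 genes compared, with a Pearson r of 0.80 over the 44 sums, and Ahnak, a large scaffold protein of the same complex, came next (r = 0.74).

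S100a14 and S100a16 had their highest means in columnar and squamous-like cells. S100a14 stood at 983, 594, 745 and 742 CPM in columnar cells and at 906, 714, 879.6 and 705 in squamous-like cells of the tumor libraries. Paneth-like cells followed at 659.7 ± 153 (SD, n = 3), and the gap to the next type, neutrophil-like cells at 479 ± 116 (SD, n = 4), exceeded the spread. S100a16 stood at 1261, 2288, 2024 and 3509 CPM in columnar and at 1127, 2739, 2043 and 2854 in squamous-like cells. The 2 epithelial kinds did not differ beyond the spread between libraries for either gene.

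Columnar marker genes were also counted in other cells, so these members were set beside 8 columnar markers, among them Krt8, Krt18 and Vil1. In non-epithelial types S100a14 stood at a median of 24.8%, 29.0%, 77.8% and 32.9% of its columnar level in the tumor libraries. The columnar markers stood at 21.6%, 24.8%, 66.4% and 28.6%. S100a14 lay above the markers in 3 of 6 types, 7 of 8, 4 of 4 and 5 of 8, and was highest in the lymphatic endothelial-like cells of day 3, at 110% of its columnar level. The part of epithelial RNA in these levels was not tested. S100a16 was further from the markers, at 48.1%, 41.3%, 79.0% and 47.7%, and lay above them in every non-epithelial type of every library (6, 8, 4 and 8 types). S100a6 did so too, at 62.6%, 60.6%, 92.6% and 63.3%, and so did S100a11 and S100a13. S100a10 lay above the markers in 6, 7, 4 and 7 types.

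**Figure D3:**
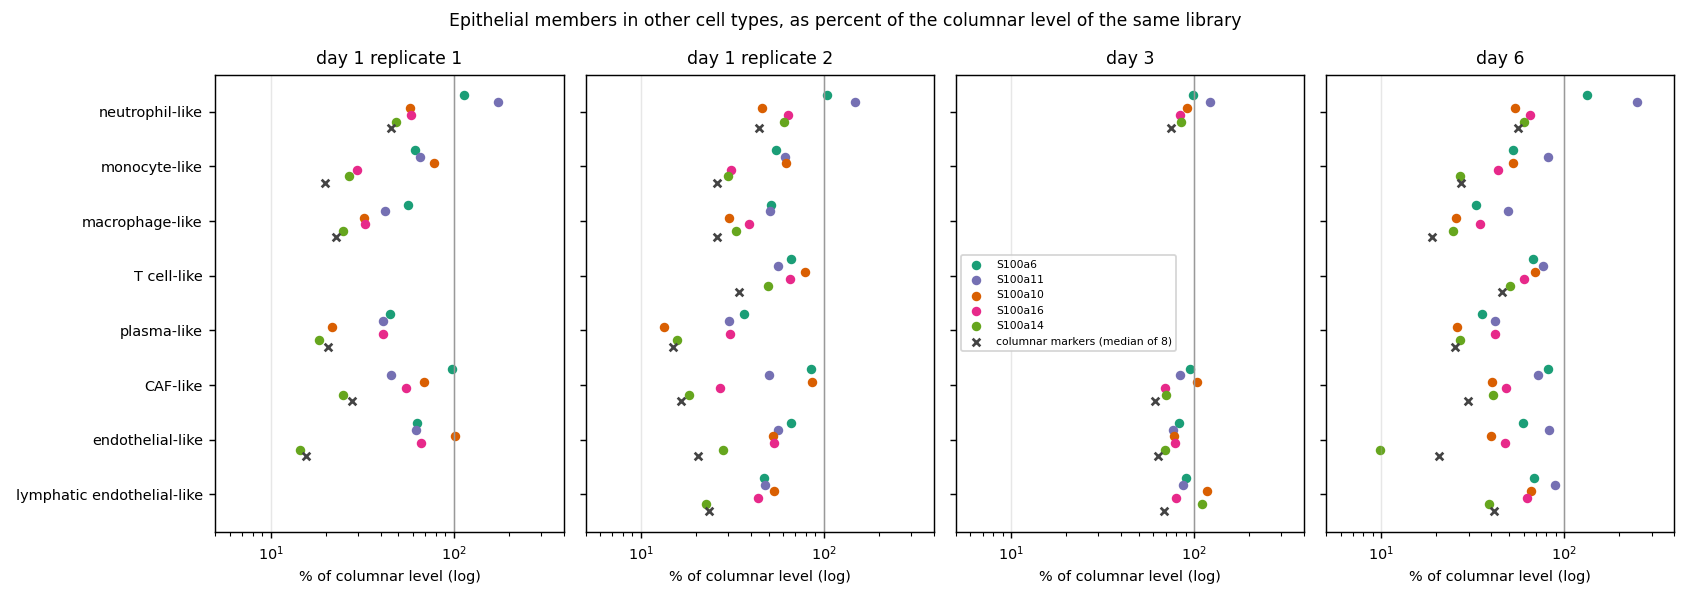
Levels of S100a6, S100a11, S100a10, S100a16 and S100a14 in non-epithelial types as percent of the columnar level of the same library (log axis, 1 panel per tumor library; the cross is the median of 8 columnar markers and the vertical line marks 100%). S100a6, S100a11 and S100a16 lie to the right of the cross in every row, and S100a11 lies beyond 100% in neutrophil-like cells. The crosses lie furthest to the right in day 3, whereas S100a6 and S100a11 of neutrophil-like cells lie furthest to the left there.

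S100a13, which takes part in the release of growth factors that lack a signal peptide, had low levels throughout. Endothelial-like cells had the highest mean, 156 ± 102 CPM (SD, n = 4), but the value of day 1 replicate 1 (308 CPM from 12 cells) stood far above 117, 105 and 91.4 in day 1 replicate 2, day 3 and day 6. Goblet-like (115 ± 16.5, n = 3) and Paneth-like cells (110 ± 5.77, n = 3) came next, and no gap at the top exceeded the SD. Columnar cells stood at 69.6, 58.2, 69.9 and 71.3 CPM.

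Within the squamous-like cells of day 6, S100a11, S100a14 and S100a16 were higher in the Ltf and Calm4 clusters than in the basal Trp63 cluster. There S100a14 stood at 437 CPM in the Trp63 cluster, 943 in the Ltf cluster and 989 in the Calm4 cluster. S100a16 stood at 1973, 3628 and 3851 CPM and S100a11 at 1626, 3901 and 3008 CPM in the same clusters. The day 1 replicate 2 library gave the same order for the Trp63 and Ltf clusters, with S100a11 at 2917 and 5183 CPM, S100a14 at 549.7 and 1062 and S100a16 at 1983 and 4180.2, from 49 and 16 cells. The 124 cells of its Krt16 cluster lay near the Trp63 cluster in S100a11 (2892 CPM) and between the other 2 in S100a14 (663) and S100a16 (2660.1). In the Trp63 and Ltf clusters these 3 genes ran against S100a4, which was highest in the basal cluster of both libraries. Col17a1, a basal attachment gene, was at 273 CPM in the Trp63 cluster of day 6 against 56.3 and 37.4 in the other 2.

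The question put to the tumor libraries was whether the members changed from early to late treatment. Counts were summed per library and type and late was compared with early by edgeR's quasi-likelihood test with Benjamini-Hochberg adjustment over all genes. In tumor cells all 9 members passed the filter on low counts, and 0 of 9 were called at an adjusted p under 0.05, beside 0% of 13090 genes. At an unadjusted p under 0.05 the test gave 619 genes (4.73%) and 0 members, and DESeq2 called 53 genes and 0 members. The median log2 difference was 0.20 over the members and 0.00 over all genes. S100a16 had the largest log2 difference of the members, 0.87 ± 0.57 (SE, late minus early; adjusted p = 0.94), with 1304 and 2234 CPM in early and 1999 and 3449 in late. Its 2 groups overlapped, while within each library structure the difference was 0.62 for the single-index and 0.63 for the dual-index pair.

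S100a8 was the only member whose late tumor-cell sums both lay below both early sums, at 29.1 and 27.8 CPM early and 22.2 and 11.2 late. Of all genes tested, 37.1% had groups that did not overlap. Its log2 difference was -0.57 ± 0.47 (adjusted p = 0.94), and Csf3r stood at 16.4 and 11.7 CPM early and 17.1 and 0.56 late in the same sums. For S100a9 the day 3 library decided the value, since a log2 difference of 0.17 ± 0.93 (adjusted p = 0.99) became -2.41 (adjusted p = 0.013) without day 3. Columnar clusters were largely separate by library, with day 3 cells in those led by Gm7808 and Gpx2 or Dmbt1 and Muc3 and day 6 cells in those led by Clca4b or Gsdmc4, so late values compare partly different clusters. Paneth-like cells were 219 of 358 tumor cells in day 1 replicate 1, 85 of 1031 in day 1 replicate 2, 81 of 954 in day 3 and 1 of 1414 in day 6. In a fit of columnar cells alone, added with the results known, edgeR called 0 genes and gave log2 differences of 0.93 for S100a16, -0.38 for S100a8, 0.21 for S100a9 and 0.75 for S100a4.

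In squamous-like cells 0 of 9 members were called, beside 0% of 9794 genes. The unadjusted test gave 391 genes (3.99%) including 1 member, S100a8, and DESeq2 called 22 genes and 0 members. S100a8 stood at 72.8 and 97.4 CPM in early and 27.6 and 5.66 CPM in late squamous-like cells, a log2 difference of -2.31 ± 0.74 (SE; adjusted p = 0.999, edgeR). The late sums lay below the early sums. S100a8 was the 1 member of 9 without overlap, beside 32.5% of all genes in either direction. Leaving out day 3 gave -3.83 with an adjusted p of 0.00382, and keeping genes with low counts gave -2.30 with 0.0253. Csf3r was at 21.6, 19.3 and 23.3 CPM in the squamous-like cells of the day 1 libraries and day 3, and at 0.44 in day 6. The part of free neutrophil RNA in the difference of S100a8 was not tested. The other 8 members had log2 differences between -0.29 and 0.46, each smaller than its SE. Nearly all day 3 squamous-like cells (282 of 286) belonged to the cluster led by Cfap53 and Dmkn, whereas those of day 6 fell into the Trp63, Ltf and Calm4 clusters.

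The difference between squamous-like and tumor cells in the change from early to late was tested in 1 fit with library as a block. It gave 0 of 9 members, beside 0% of 12887 genes (515 genes, or 4%, at an unadjusted p under 0.05, and 17 by DESeq2). S100a8 had the only unadjusted p under 0.05 among the members, with -2.05 ± 0.56 (log2, SE; adjusted p = 0.99). Without day 3 the value was -2.77 with an adjusted p of 0.000294, and without the filter -2.05 with 0.0115.

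In neutrophil-like cells 0 of 9 members were called, beside 0.0831% of 2407 genes, and 0 at an unadjusted p under 0.05, beside 7.35%. S100a8 had a log2 difference of -0.46 ± 0.90 (adjusted p = 0.94) and S100a9 of -0.17 ± 0.73 (adjusted p = 0.98). The 2 late libraries went opposite ways for S100a8, with -2.72 from day 1 to day 3 among single-index and 0.55 from day 1 to day 6 among dual-index libraries, and without day 6 its value was -2.77 with an adjusted p of 0.00887. S100a10 (393 and 317 CPM early, 506 and 521 late) and S100a16 (734 and 1463 early, 1696 and 2280.4 late) had late sums above both early sums. They were the 2 of 9 members without overlap, beside 37.9% of all genes in either direction. The late sums rest on 26 and 25 cells. In the same sums Krt5 stood at 129 and 282 CPM early and 913 and 1239 late, and the squamous keratin Krt13 at 470.2 and 98.6 early and 1402 and 1512 late. The part of epithelial RNA in the differences of S100a10 and S100a16 was not tested.

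In CAF-like cells 0 of 9 members were called, beside 0% of 3333 genes (269 genes, or 8.07%, unadjusted, and 11 by DESeq2). S100a16 stood at 692 and 619 CPM early and 1406 and 1686 late, a log2 difference of 1.33 ± 0.61 (adjusted p = 0.65). S100a14 stood at 244 and 109 CPM early and 524 and 303 late, a log2 difference of 1.39 ± 0.66 (adjusted p = 0.67), and S100a13 at 81.4 and 67.3 early and 129 and 129.7 late, a log2 difference of 0.92 ± 0.57 (adjusted p = 0.72). S100a9 was called only when day 3 was left out (adjusted p = 0.000671), on a late sum of 0 counts. For the first 3 the late sums lay above both early sums. They were the 3 of 9 members without overlap, beside 39.2% of all genes in either direction. In the same sums the epithelial keratin Krt8 stood at 936 and 837 CPM early and 1627 and 1575 late, and the squamous keratin Krt5 at 122 and 63.1 early and 901 and 673 late. The part of epithelial RNA in the difference of these members was not tested.

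In endothelial-like cells 0 of 8 members tested were called, beside 0.06% of 4999 genes, and 0 at an unadjusted p under 0.05, beside 8.96%. S100a8 did not pass the filter on low counts. S100a13 stood at 308 and 117 CPM early and 105 and 91.4 late, a log2 difference of -0.88 ± 0.64 (adjusted p = 0.69), and S100a16 at 834 and 1228 early and 1592 and 1664 late, a log2 difference of 0.79 ± 0.63 (adjusted p = 0.71). They were the 2 of 8 members without overlap, beside 38.9% of all genes. The squamous keratin Krt13 stood at 240.5 and 80.5 CPM early and 1343 and 1152 late in these sums, a log2 difference of 3.14 ± 0.73 (adjusted p = 0.23). Macrophage-like cells could be fitted on 3 sums, since day 3 held 2 such cells and was dropped, so late stood for day 6 alone. There 0 of 8 members were called, beside 1.77% of 3953 genes, and S100a9 did not pass the filter. At an unadjusted p under 0.05 there was 1 member, S100a4, beside 7.11% of genes. It had 527 and 196 CPM in day 1 and 101 in day 6, a log2 difference of -1.67 ± 0.58 (SE, adjusted p = 0.14). S100a8 had 3 and 15 counts in day 1 and 0 in day 6 and was called only without the filter (adjusted p = 0.0247) and at clustering resolution 0.5 (adjusted p = 5.86e-05), where S100a9 was called too.

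**Figure D4:**
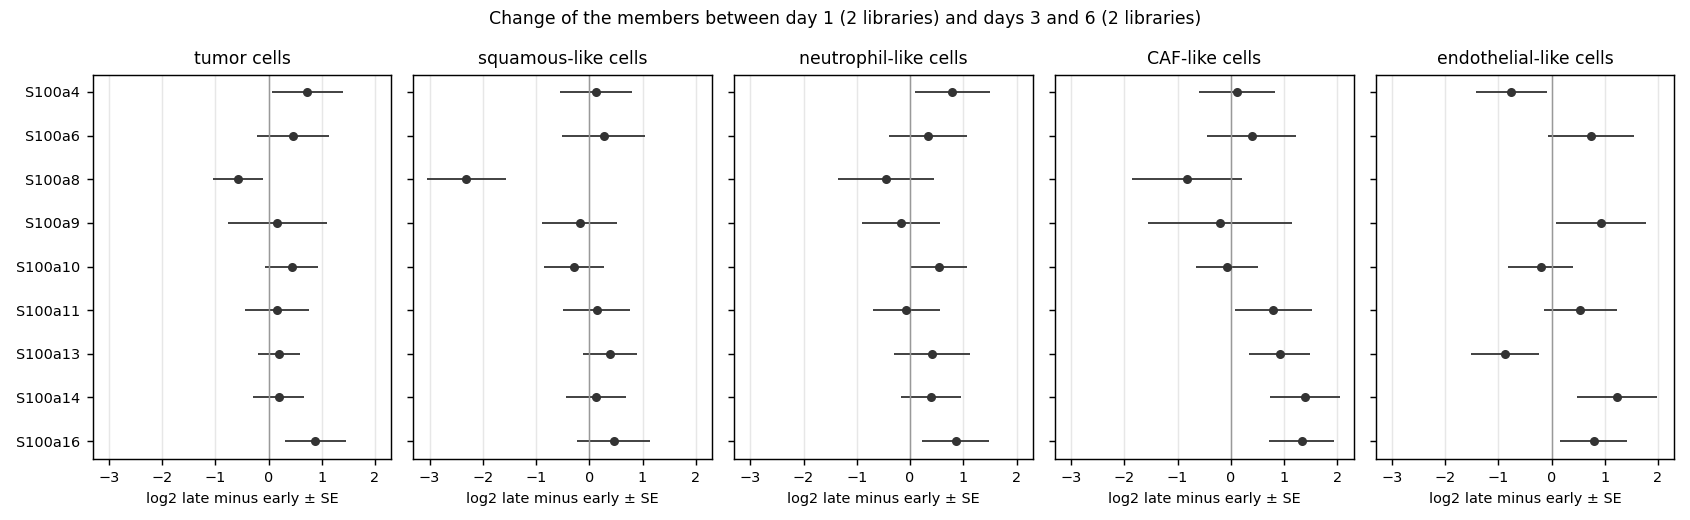
Change of each member from early to late treatment in 5 cell types (log2, late minus early, edgeR; bars are SE). S100a8 in squamous-like cells lies lowest, at -2.31, most other bars cross or come near 0, and none passed the adjusted threshold.

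Some differences followed libraries and not cell types. Among the 5 types with a sum in all 4 tumor libraries (columnar, squamous-like, neutrophil-like, CAF-like and endothelial-like), S100a6 was highest in day 3 in 5 of 5 and S100a16 was highest in day 6 in 5 of 5. Both single-index libraries lay above both dual-index libraries in 4 of 5 types for S100a4, S100a6 and S100a11. A shift shared by epithelium, immune cells and stroma of a library cannot be told apart from free RNA or from the library's preparation in these data.

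The normal colon library gave levels of 7 members, since S100a8 and S100a9 were not among the genes listed for it. In its 328 columnar cells S100a4 stood at 3.21 CPM (10 counts, 95% exact Poisson interval 1.54 to 5.90), against 30.6 to 119 in the columnar cells of the tumor libraries. S100a11 stood at 228 CPM (211 to 245) against 1482 to 3526, a ratio of 6.50 to 15.5. S100a6 stood at 4631 against 11377 to 24647, S100a16 at 562 against 1261 to 3509, S100a14 at 269 against 594 to 983 and S100a10 at 334 against 555 to 963. S100a13 was the exception, at 70.9 CPM (61.9 to 80.9) against 58.2 to 71.3. Thus 6 of 7 members were higher in the columnar cells of every tumor library than in the normal one. The share of all genes that did so was not measured, so this count cannot be read as a trait of the S100 genes. There was only 1 normal library, from a preparation after crypt removal and without tumor or drugs. These conditions cannot be told apart, and no test was made.

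**Figure D5:**
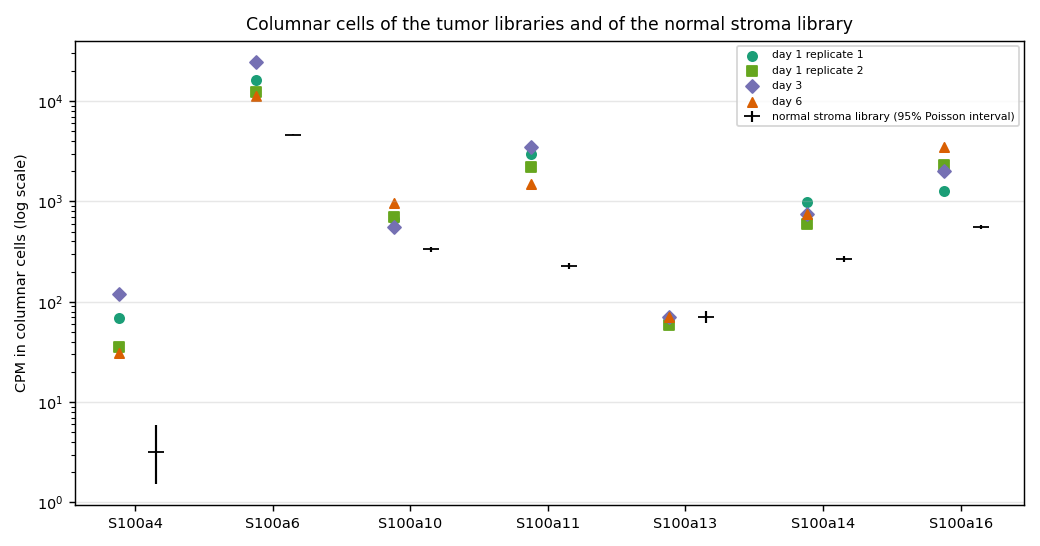
Level of 7 members in columnar cells of the 4 tumor libraries and of the normal stroma library (CPM, log axis; the bar on the normal value is its 95% exact Poisson interval). The tumor points lie above the normal point for 6 members and on both sides of it for S100a13.

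In the other cells of the normal colon the members were divided as in the tumors for some types. S100a4 was at 714 CPM in T cell-like cells, 224 in glial-like cells, 215 in macrophage-like cells and 178 in fibroblast-like cells. S100a14 was at 101 CPM in goblet-like cells and at most 29.1 in the 11 other types besides columnar cells. S100a6 was high in telocyte-like (5174 CPM), myofibroblast-like (4915) and fibroblast-like cells (4251) and low in plasma-like cells (345). S100a11 was highest in lymphatic endothelial-like cells, at 1046 CPM, and S100a16 in glial-like cells, at 753 CPM from 18 cells.

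Genes with the pattern most like a member were ranked over the same 44 sums, as a description. S100a8 was nearest to Retnlg (r = 0.96), a neutrophil gene, and to S100a9. S100a4 was nearest to the actin crosslinker gene Flna (r = 0.83) and to Tubb6 (r = 0.78). S100a6 and S100a11 were nearest to each other (r = 0.89). S100a14 was nearest to Sfn (r = 0.86), Ezr (r = 0.86) and Pkp3 (r = 0.85), which encode an epithelial 14-3-3 protein, a microvillus linker and a desmosome protein. S100a13 had no close neighbour, its nearest gene being Tmed3 (r = 0.59).

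Other S100 genes and known partners were described from fixed lists. Of the 7 other S100 genes listed, 3 could be tested in tumor cells and 3 in squamous-like cells, and none was called in either by edgeR with the filter and all 4 libraries. S100a1 stood at 266, 203, 406 and 306 CPM in columnar cells. S100a7a, the mouse counterpart of psoriasin, was in squamous-like cells at 91.7 CPM in day 1 replicate 2 and at 5.39 to 9.49 in the other 3 libraries. Its log2 difference of -2.42 ± 0.91 (SE; adjusted p = 0.999, edgeR) became -2.39 with an adjusted p of 0.027 without the filter and -3.25 with 0.015 without day 1 replicate 1, and it was 0.93 (adjusted p = 1.0) without day 1 replicate 2. Of the annexins, receptors and other partners, 12 were tested in tumor cells and 11 in squamous-like cells, and 0 were called in either direction with all 4 libraries. Anxa1, a partner of S100a11, stood at 1898, 8651, 843 and 4551 CPM in squamous-like cells and was lower in the columnar cells of each library, at 1037, 1761, 601 and 1246. Tlr4, a receptor for the calprotectin pair, was highest in monocyte-like cells, at 113, 119 and 75.4 CPM in both day 1 libraries and in day 6.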

How the data were processed

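Single cells were encapsulated by inDrop, and the authors deposited raw UMI counts per gene and cell, made with dropEst and a GRCm38 annotation, for 4 tumor libraries and 1 normal stroma library. These deposited counts were used without rescaling. Cells with at least 500 genes and at most 15% mitochondrial counts were kept. In the stroma table a point in gene names was read as a hyphen, and 7 of the 9 members were listed there.

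The tumor libraries together, and the stroma on its own, were log-normalised to 10000 counts and clustered without S100 or partner genes (2000 variable genes, 20 components, 20 neighbours, leidenalg 0.10.2, resolution 1). Clusters were named from at least 3 markers. Scrublet (scanpy 1.11.5) called 12 of the tumor and 7 of the stroma cells doublets, too few for the caller to have worked, so doublets were kept and removal of the 6% of cells with the highest scores was an alternative. Counts were summed per library and type (at least 10 cells) and tested with edgeR 4.0.16 in R 4.3.3 (TMM, filterByExpr, quasi-likelihood, Benjamini-Hochberg, threshold 0.05). DESeq2 1.42.0, other scaling, no filter, library structure as a block, each library left out and other resolutions were alternatives. Likeness was the Pearson r of log2(CPM + 20) among genes with a mean of at least 50 CPM. In simulated counts with 200 changed genes, tumor-cell sums recovered 97% at a log2 change of 4 and 0% at 2. The named genes were all members in every named type, partner genes called or highest, and the 3 most alike genes. Members, lists and tests were chosen with earlier results of these data known.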

Additional observations from a re-analysis of the deposited data

Results flagged for a closer look

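For S100a13 the late sums lay above both early sums in CAF-like cells and below both in endothelial-like cells, with log2 differences of 0.92 ± 0.57 and -0.88 ± 0.64 (SE, edgeR, adjusted p = 0.72 and 0.69). The difference between the 2 types was not tested. The sums hold 4, 16, 14 and 21 counts of S100a13 in CAF-like cells and 41, 35, 35 and 5 in endothelial-like cells of day 1 replicate 1, day 1 replicate 2, day 3 and day 6.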

How the results depend on the processing

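Among the members, S100a8 and S100a9 alone were called under any alternative run. No paired analysis was possible because the labels give the late libraries no replicate number, but the fit with library structure as a block was run. By DESeq2 53 genes were called in tumor cells, 22 in squamous-like, 6 in neutrophil-like, 1 in macrophage-like, 11 in CAF-like and 12 in endothelial-like cells and 17 in the difference between squamous-like and tumor cells. Without the filter the counts were 236, 94, 12, 44 and 58 in tumor, squamous-like, neutrophil-like, CAF-like and endothelial-like cells and 95 for the difference. With structure as a block they were 23, 6 and 13 in squamous-like, neutrophil-like and endothelial-like cells. Resolution 0.5 gave 184 in macrophage-like and 0 in neutrophil-like cells, where resolution 2 and doublet removal also gave 0, and doublet removal gave 0 in endothelial-like cells. Leaving out 1 library gave 4 to 490 genes in tumor, 13 to 82 in squamous-like, 0 to 199 in neutrophil-like, 3 to 175 in CAF-like and 0 to 62 in endothelial-like cells and 0 to 222 for the difference. The cause of these shifts was not tested.

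Of the member values, 6 reversed in other alternatives, with the block S100a9 in tumor cells (-0.65) and S100a4 in squamous-like cells (-0.14), by DESeq2 S100a9 (0.10) and S100a10 (0.017) in CAF-like cells, and in macrophage-like cells S100a14 without the filter (0.035) and S100a13 at resolution 0.5 (0.67). Leaving out 1 library also turned the sign of log2 differences. In tumor cells the values ranged for S100a4 from -0.42 to 1.45, for S100a6 from -0.13 to 0.88, for S100a9 from -2.41 to 1.06, for S100a10 from -0.090 to 0.83, for S100a11 from -0.51 to 0.62, for S100a13 from -0.060 to 0.56, for S100a14 from -0.17 to 0.72. In squamous-like cells the values ranged for S100a4 from -1.09 to 0.77, for S100a6 from -0.66 to 0.83, for S100a9 from -1.80 to 0.59, for S100a10 from -0.64 to 0.18, for S100a11 from -0.11 to 0.35, for S100a14 from -0.092 to 0.32, for S100a16 from -0.076 to 1.31. In neutrophil-like cells the values ranged for S100a4 from -0.72 to 1.17, for S100a6 from -0.086 to 0.45, for S100a8 from -2.77 to 0.33, for S100a9 from -1.26 to 0.32, for S100a11 from -0.41 to 0.13. In CAF-like cells the values ranged for S100a4 from -0.48 to 0.99, for S100a6 from -0.39 to 0.89, for S100a9 from -7.40 (a fit on a late sum of 0 counts, which is no bound) to 1.499, for S100a10 from -0.36 to 0.16, for S100a11 from -0.088 to 1.33. In endothelial-like cells the values ranged for S100a6 from -0.36 to 1.40, for S100a9 from -6.24 (also against 0 counts) to 1.78, for S100a10 from -0.61 to 0.32, for S100a11 from -0.24 to 1.07, for S100a14 from -1.001 to 1.99. In the difference of squamous-like and tumor cells the values ranged for S100a4 from -1.59 to 0.23, for S100a6 from -0.87 to 0.27, for S100a9 from -0.49 to 0.59, for S100a11 from -0.49 to 0.61, for S100a13 from -0.52 to 0.99, for S100a14 from -0.48 to 0.24, for S100a16 from -0.66 to 0.21.

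As medians over cells S100a10 in columnar cells was at 535 CPM and S100a13 in endothelial-like cells at 10.2 CPM. The highest type of a member in a library was the same in 30 of 36 pairs with at least 1000 genes per cell, 31 at resolution 0.5, 36 at resolution 2, 34 without doublets and 25 as medians. In columnar cells, doublet removal put S100a8 at 0.347% and 0.482% of the neutrophil-like level in day 1 replicates 1 and 2, and S100a9 at 0.283%, 0.397% and 0.0525% in day 1 replicate 1, day 1 replicate 2 and day 6. Without the 1% of cells richest in the pair, S100a8 in columnar cells stood at 0.353% and 0.562% in the day 1 replicates, S100a9 in columnar cells at 0.278%, 0.461%, 1.84% and 0.0515% in the tumor libraries, and S100a9 in squamous-like cells at 3.60% in day 3 and 0.193% in day 6. Columnar cells alone, and the unnamed cluster added to the tumor cells, were alternatives chosen after seeing the data. T cell-like cells had sums in 2 libraries and could not be fitted, nor could macrophage-like cells with a library left out or with the block. Depth limits S100a8 and S100a9 outside neutrophil-like cells and every value in types with few cells.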
